A study of Homo sapiens with 24 samples.

Results

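The secreted Wnt inhibitors described here are 10 genes: DKK1, DKK2, DKK3, DKK4, SFRP1, SFRP2, SFRP4, SFRP5, FRZB and WIF1. They were chosen by name, and their probes were found in the scanner files through the RefSeq transcript given for each probe. The 10 genes are read by 12 of the 50683 probes on the array that are not controls.

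Wnt ligands signal through Frizzled receptors and the co-receptors LRP5 and LRP6, and the signal that passes through β-catenin (gene CTNNB1) switches on genes that TCF/LEF factors bind. The cell can lower the signal outside the membrane: DKK proteins bind LRP5 and LRP6, SFRP proteins and FRZB carry a cysteine-rich domain like that of the Frizzled receptors and bind Wnts, and WIF1 binds Wnts through a domain of its own. DKK1 is a known target of the pathway it inhibits, and loss of SFRP genes has been described in liver cancer.

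The cells were HepaRG, an established human hepatocellular carcinoma line, and 24 one-colour Agilent arrays held 8 conditions with 3 arrays each. Cells were left untransfected or were electroporated with 80 pmol of a control siRNA or of an siRNA against CTNNB1 (1 sequence per target), and each of these states was kept with or without mouse recombinant Wnt3a at 200 ng/ml for 72 h in serum-free medium with albumin. The remaining pair of conditions, named FZ8CRD in the labels, were untransfected cells given the soluble cysteine-rich domain of mouse FZD8 (FZD8_CRD, 300 ng/ml) with or without Wnt3a. Replicate 1, replicate 2 and replicate 3 of all conditions lay on slide 1, slide 2 and slide 3, and a condition had the same position on every slide, so position and condition cannot be told apart. Signals were divided by the 75th percentile of their array and are given as log2. That percentile was 643 to 934 intensity units, and 58.3% to 66.5% of the spots of an array were well above background by the scanner's own mark. Pearson's r between replicates was 0.984 to 0.996 across genes.

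The labels were checked against the arrays first. CTNNB1 signals were 3.35, 3.37 and 3.51 with control siRNA and 0.26, 0.35 and 0.52 with CTNNB1 siRNA. With Wnt3a they were 3.39, 3.62 and 3.67 with control siRNA and 0.33, 0.53 and 0.77 with CTNNB1 siRNA. The target was thus lower on each CTNNB1 siRNA array than on any control siRNA array, and the difference was −3.03 without Wnt3a (adjusted p 1.15e-09) and −3.02 with it (adjusted p 7.62e-10). All 6 hepatocyte markers looked at (ALB, APOA1, APOB, TTR, SERPINA1 and HNF4A) were well above background on every array. Among the 8 feedback targets of the pathway, Wnt3a raised 5 in untransfected cells (5.6% of all genes called) and the same 5 with control siRNA (2.11%). They were AXIN2, NKD2, LEF1, TCF7 and RNF43, though AXIN2 in untransfected cells changed direction under scaling to the spike-in probes (0.37 against −0.02). Without untransfected with Wnt3a replicate 2 the count in untransfected cells was 3 (LEF1, TCF7 and RNF43), beside 0.73% of all genes called. CTNNB1 was called higher with Wnt3a among FZ8CRD arrays once FZ8CRD replicate 3 was left out (0.50, adjusted p 0.0129, against 0.23 and 0.525 with all arrays).

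A pair of arrays stood apart from their conditions. Each array was compared with the mean of the other arrays of its own condition and with the mean of each other condition, over the 2000 genes with the largest variance after each gene was centred on its mean. Pearson's r with the own condition was 0.13 for FZ8CRD replicate 3 and 0.07 for untransfected with Wnt3a replicate 2, while the next lowest was 0.34. FZ8CRD replicate 3 had an r of 0.76 with the FZ8CRD arrays given Wnt3a. For untransfected with Wnt3a replicate 2 the highest r was 0.42, with control siRNA plus Wnt3a. In total 5 of 24 arrays were nearer another condition than their own; the other 3 were untransfected with Wnt3a replicate 1 and replicate 3, nearest the untransfected arrays without Wnt3a, and CTNNB1 siRNA with Wnt3a replicate 3, nearest CTNNB1 siRNA without Wnt3a.

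FZ8CRD replicate 3 differed from the other FZ8CRD arrays in some hepatocyte markers and not in others. APOA1 was 0.45 and −0.01 on FZ8CRD replicates 1 and 2 and 3.24 on replicate 3, against 3.57, 3.48 and 3.28 on the FZ8CRD arrays with Wnt3a. TTR was 1.55, 1.21 and 5.11 on the FZ8CRD arrays and 5.19, 5.30 and 5.23 with Wnt3a. APOB was 1.12 on replicate 3 and at least 3.06 on the others, against 0.14, −0.04 and 0.71 with Wnt3a. ALB was 7.95, 7.30 and 7.54, with replicate 3 between the other arrays, and the summed signal of the 6 hepatocyte markers was 8.51, 7.95 and 8.51. The Wnt target TCF7 was −2.95, −2.72 and −1.50 on the FZ8CRD arrays and −0.68, −0.64 and −0.93 with Wnt3a. RNF43, another Wnt target, stayed with its condition on replicate 3: it was −0.36, −0.44 and −0.24, against 0.50, 0.38 and 0.50 with Wnt3a. What set these arrays apart was not tested, and no array was left out of the main comparisons. The calls of members and the list counts that changed without either array are given both ways.

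Among the 10 inhibitor genes, 7 were tested and 3 were not. To be kept, a probe had to exceed background clearly in a whole condition, meaning on each of its 3 arrays, which left 8 of the 12 probes. DKK1, SFRP1, SFRP2 and SFRP4 were well above background on all 24 arrays, FRZB on 21, DKK3 on 11 and DKK2 on 10. DKK2 passed only through the FZ8CRD arrays, and DKK3 only through the FZ8CRD arrays with Wnt3a, so a difference in those conditions is partly built into their being tested. DKK4 was well above background on 1 array, SFRP5 on 1 and WIF1 on none, and no difference is given for them. Signals below −6.13, the floor, were set to it, so a value above the floor is not always well above background. Where 1 of the compared groups holds arrays not well above background, a fold is given only as a lower bound. Slide differences and medians use the floor value as it stands. Levels of different inhibitor genes are not compared with one another, since probes differ in how strongly they bind.

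**Figure D1:**
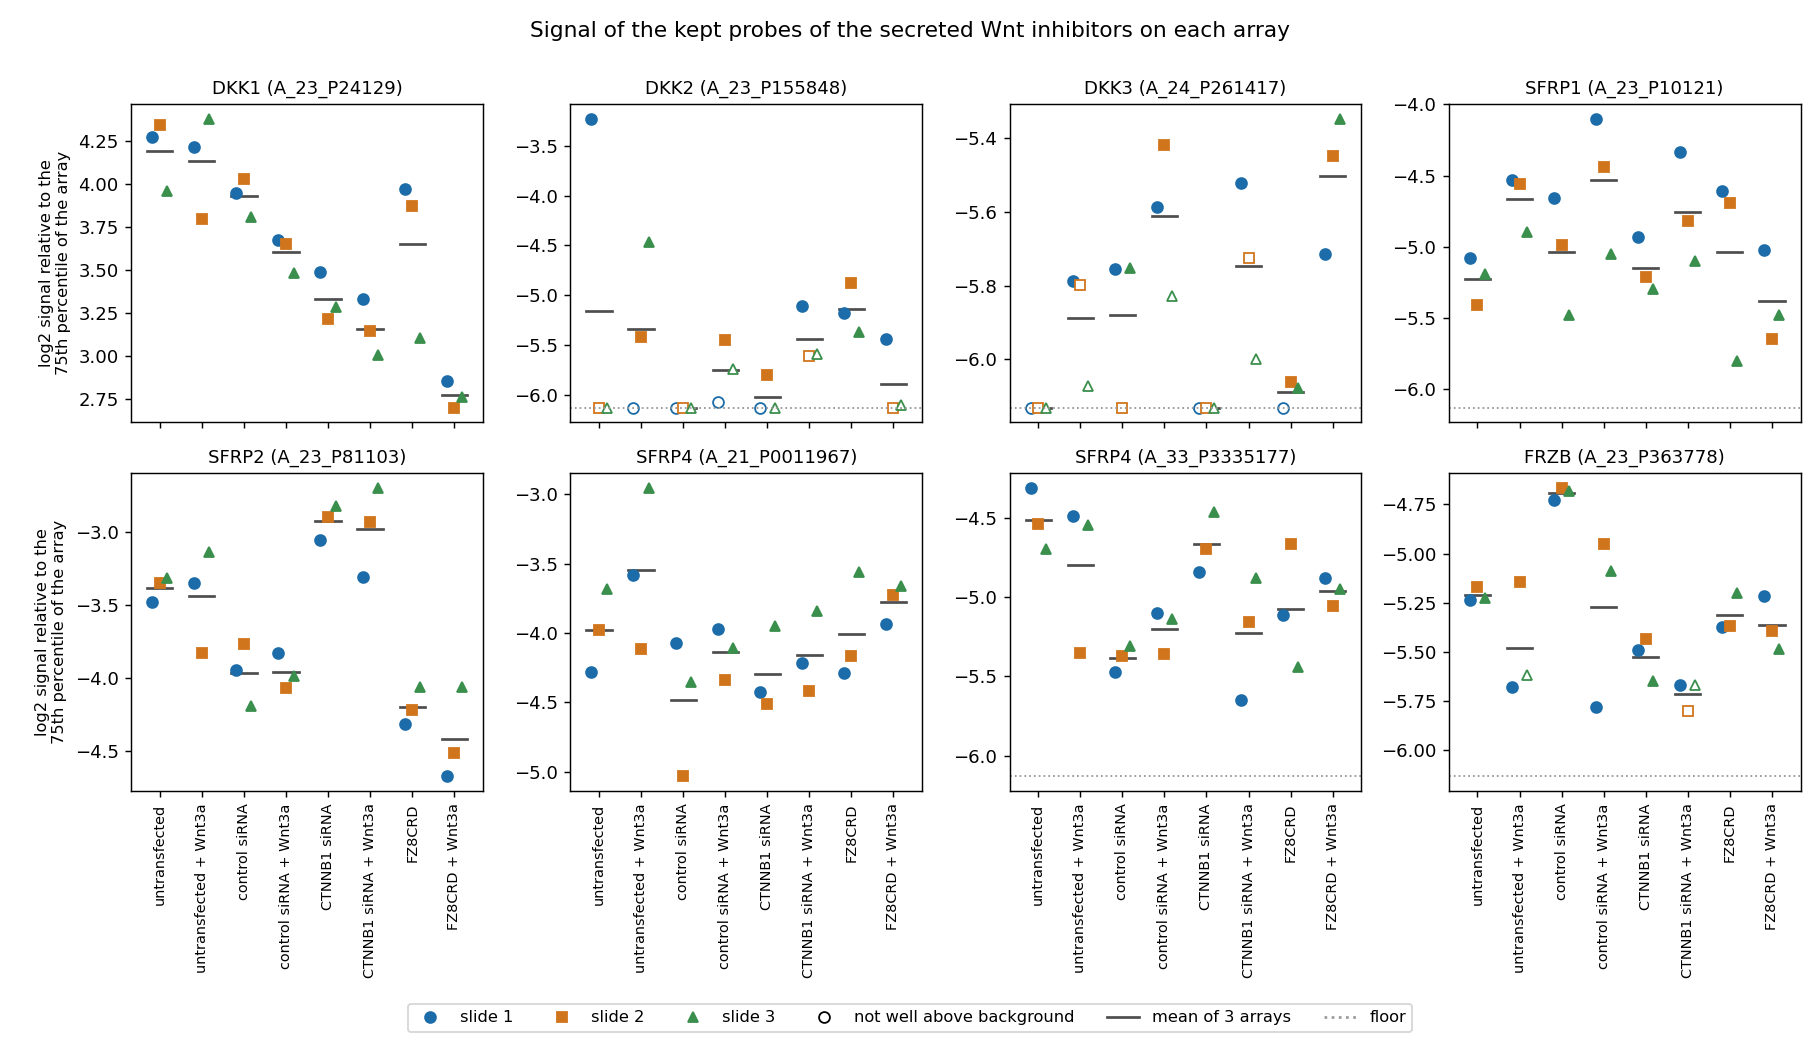
Scaled log2 signal of the 8 kept probes of the inhibitor genes by condition, with 1 point per array, a shape per slide, open points where the probe was not well above background and a bar at the mean of 3 arrays. The dotted line is the floor of −6.13; DKK1 is lowest in FZ8CRD with Wnt3a (mean 2.77), SFRP2 is highest in CTNNB1 siRNA (mean −2.93), and DKK2 and DKK3 lie at or near the floor on most arrays.

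In all, 10 two-group comparisons and 2 interactions were fitted with limma over 24643 genes, and a gene is called here when its adjusted p is under 0.05. The counts of members are read beside the share of all genes called in the same comparison. With Wnt3a, 0 of the 7 tested members were called in untransfected cells (5.6% of all genes; 0 members at an unadjusted p under 0.05), 0 with control siRNA (2.11% of all genes; 1 member unadjusted) and 0 with CTNNB1 siRNA (0.0406% of all genes; 1 member unadjusted). Among FZ8CRD arrays, Wnt3a gave 2 called members, 1 higher and 1 lower (8.29% of all genes), but the higher one, DKK3, had passed the filter only through the FZ8CRD arrays with Wnt3a. With only probes well above background on all 24 arrays, 1 member was called there, DKK1 (9.20% of all genes). Control siRNA against no transfection gave 1, lower, without Wnt3a (22.3% of all genes) and 0 with it (9.03% of all genes; 2 members unadjusted).

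CTNNB1 siRNA against control siRNA gave 3 called members without Wnt3a, 1 higher and 2 lower (10.6% of all genes), and 1 with Wnt3a, higher (10.6% of all genes). FZ8CRD against untransfected cells gave 2 called members, both lower, without Wnt3a (41.9% of all genes) and 2, both lower, with Wnt3a (37.2% of all genes). By limma no member was called in the interaction of CTNNB1 siRNA and Wnt3a (0 of 7, 0.0162% of all genes; 0 unadjusted) or of FZ8CRD and Wnt3a (0 of 7, 0.073% of all genes; 2 unadjusted). The comparisons share arrays, so their counts are not independent. With the slide as a block, control siRNA gave 2 called members without Wnt3a (32.1% of all genes) and 2 with it (15.2%), FZ8CRD with Wnt3a gave 3 (48.5%), and the other counts of members did not change.

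The median log2 difference of the 7 tested members was set beside that of all genes. It was −0.06 against 0.01 for Wnt3a in untransfected cells, 0.27 against 0.02 with control siRNA, 0.14 against 0.03 with CTNNB1 siRNA and −0.22 against 0.02 among FZ8CRD arrays. For control siRNA it was −0.26 against −0.03 without Wnt3a and −0.42 against −0.02 with it, and for CTNNB1 siRNA −0.11 against −0.03 and −0.14 against −0.01. For FZ8CRD it was −0.02 against −0.09 without Wnt3a and −0.55 against −0.08 with it. Without untransfected with Wnt3a replicate 2 the first of these medians was 0.14, of opposite sign, and those for control siRNA and FZ8CRD with Wnt3a were −0.46 and −0.59. The median without FZ8CRD replicate 3 was −0.15 for Wnt3a among FZ8CRD arrays and −0.16 for FZ8CRD without Wnt3a. The medians for Wnt3a with control siRNA and for control siRNA, CTNNB1 siRNA and FZ8CRD with Wnt3a are the difference of DKK2 or DKK3 alone, which were well above background on 10 and 11 arrays.

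Leaving out either of the arrays that stood apart changed the counts. Without FZ8CRD replicate 3, the share of all genes called was 19.9% for Wnt3a among FZ8CRD arrays, 40.6% for FZ8CRD without Wnt3a and 7.75% for the interaction of FZ8CRD and Wnt3a, and the called members were 2, 1 and 2, with 3, 1 and 2 at an unadjusted p under 0.05. Without untransfected with Wnt3a replicate 2, the share was 0.73% for Wnt3a in untransfected cells, 16.4% for control siRNA with Wnt3a, 37.6% for FZ8CRD with Wnt3a and 0.0284% for the interaction, and the called members were 0, 3, 2 and 0 by limma, with 2, 3, 3 and 1 at an unadjusted p under 0.05. The 3 members called for control siRNA with Wnt3a were DKK1, SFRP2 and SFRP4, all lower.

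**Figure D2:**
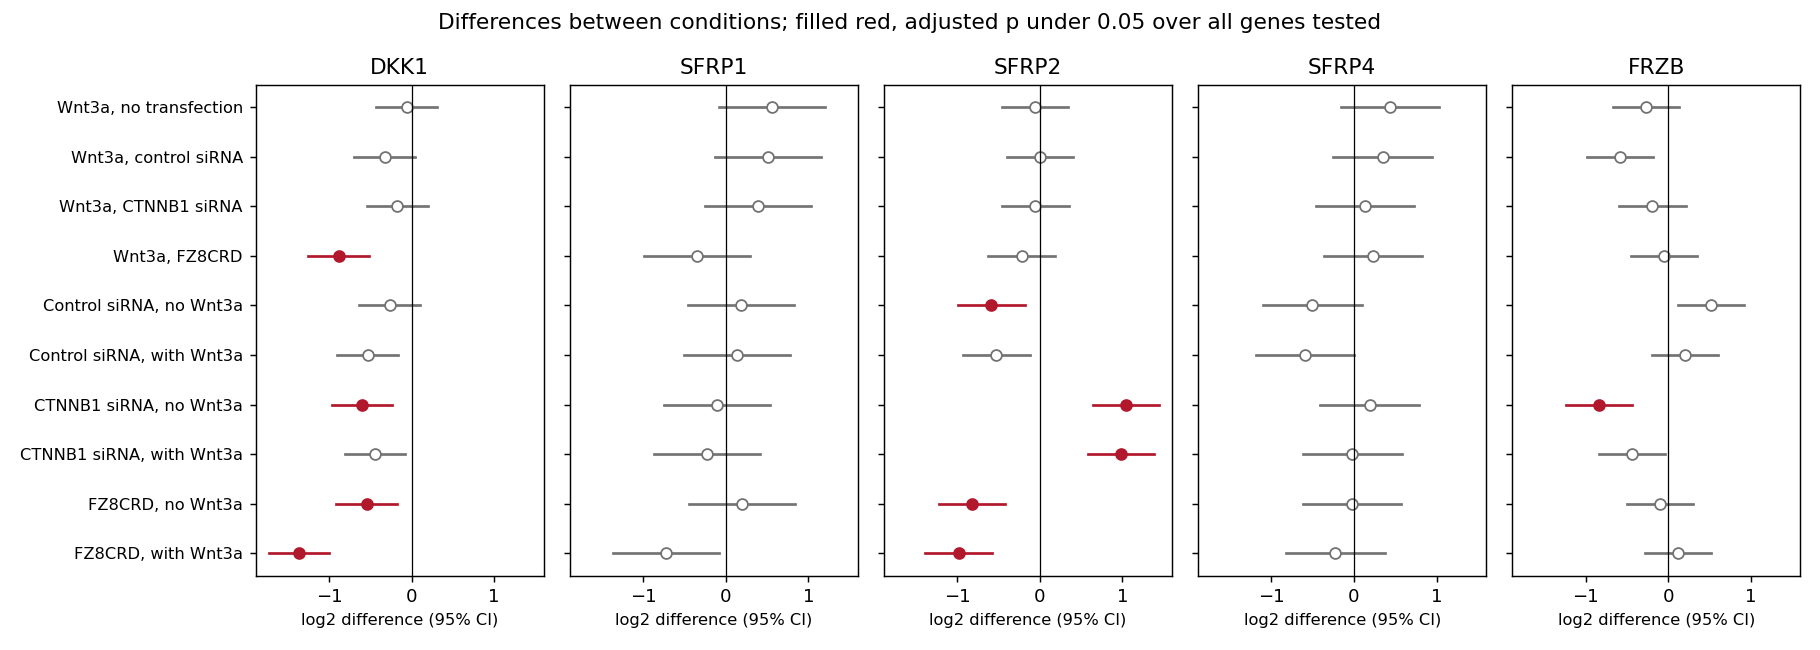
Log2 difference with its 95% confidence interval in the 10 two-group comparisons for DKK1, SFRP1, SFRP2, SFRP4 and FRZB, with filled red points where the adjusted p is under 0.05. DKK1 differs most in FZ8CRD with Wnt3a against untransfected with Wnt3a (−1.36), SFRP2 is higher with CTNNB1 siRNA (1.04 and 0.98) and lower with FZ8CRD (−0.82 and −0.98), FRZB is called once (−0.83), and SFRP1 and SFRP4 are not called.

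DKK1 encodes the inhibitor that binds LRP5 and LRP6, and it was read by probe A_23_P24129. On slides 1, 2 and 3 its signal was 4.27, 4.34 and 3.96 in untransfected cells and 4.22, 3.80 and 4.38 with Wnt3a. With control siRNA it was 3.95, 4.03 and 3.81, and 3.67, 3.65 and 3.48 once Wnt3a was added. These conditions overlap for DKK1 except that each control siRNA array with Wnt3a was below each control siRNA array without it and each untransfected array. With CTNNB1 siRNA DKK1 was 3.49, 3.21 and 3.28, and 3.33, 3.14 and 3.00 with Wnt3a. On the FZ8CRD arrays it was 3.97, 3.87 and 3.11, and with Wnt3a it was 2.85, 2.70 and 2.76. The FZ8CRD arrays with Wnt3a were thus the 3 lowest of all 24 for DKK1, and FZ8CRD replicate 3 was the lowest FZ8CRD array without Wnt3a.

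The order of the DKK1 means was untransfected (4.19, SD 0.20), untransfected with Wnt3a (4.13, SD 0.30), control siRNA (3.93, SD 0.11), FZ8CRD (3.65, SD 0.47), control siRNA with Wnt3a (3.60, SD 0.11), CTNNB1 siRNA (3.33, SD 0.14), CTNNB1 siRNA with Wnt3a (3.16, SD 0.16) and FZ8CRD with Wnt3a (2.77, SD 0.08), with 3 arrays each. Of the 7 pairs of neighbours in this order, 6 had overlapping arrays, and only the last pair did not.

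DKK1 was not called higher with Wnt3a in any state of the cells. In untransfected cells the DKK1 difference was −0.06 (95% confidence interval −0.43 to 0.31, adjusted p 0.929), with −0.06, −0.55 and 0.42 on the slides. The sign of that difference rests on untransfected with Wnt3a replicate 2, the array behind the −0.55. With control siRNA DKK1 was lower on each slide (−0.27, −0.38 and −0.33) and the 2 groups did not overlap, yet the difference of −0.33 (SE 0.18) had an adjusted p of 0.449. With CTNNB1 siRNA it was −0.17 (adjusted p 0.853). Among FZ8CRD arrays DKK1 was lower with Wnt3a by −1.12, −1.17 and −0.35 on the slides, a difference of −0.88 (SE 0.18, 1.84-fold lower, adjusted p 0.00495). Without FZ8CRD replicate 3 this difference was −1.15 (adjusted p 1.12e-05), and without FZ8CRD replicate 1 or replicate 2 it was −0.72 (adjusted p 0.0577) or −0.77 (adjusted p 0.0527). The DKK1 call was also lost without slide 1 or 2 (adjusted p 0.446 and 0.377), with the spike-in probes (−0.97, adjusted p 0.235) and with only the arrays compared (adjusted p 0.223).

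CTNNB1 siRNA was compared with control siRNA slide by slide and by the fit as designed, which does not use the slide. Without Wnt3a DKK1 was lower by −0.46, −0.82 and −0.53 on slides 1, 2 and 3, the groups did not overlap, and the difference was −0.60 (SE 0.18, 1.51-fold lower, adjusted p 0.0336). The call on DKK1 was lost without control siRNA replicate 1 (−0.59, adjusted p 0.100), replicate 2 (−0.55, 0.115) or replicate 3 (−0.66, 0.0519), and without CTNNB1 siRNA replicate 2 (−0.54, 0.116) or replicate 3 (−0.58, 0.111). It was also lost without slide 1 or 2 (−0.67, 0.216, and −0.49, 0.345), with the spike-in probes (−0.51, adjusted p 1) and with no filter (adjusted p 0.0821). With Wnt3a DKK1 was lower by −0.34, −0.51 and −0.48, again without overlap, and the difference of −0.44 had an adjusted p of 0.128. The interaction for DKK1 was 0.16 (SE 0.25, adjusted p 1).

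FZ8CRD lowered DKK1 against untransfected cells. Without Wnt3a the slides gave −0.30, −0.47 and −0.85, the groups overlapped, and the DKK1 difference was −0.54 (SE 0.18, 1.46-fold lower, adjusted p 0.0177). It was −0.27 (adjusted p 0.146) without FZ8CRD replicate 3, and it also lost the call without untransfected replicate 1 (−0.50, adjusted p 0.0611) or replicate 2 (−0.47, adjusted p 0.0712), without slide 1 or 2 (adjusted p 0.0634 and 0.0855) and with only the arrays compared (adjusted p 0.135). With Wnt3a DKK1 was lower by −1.37, −1.10 and −1.62, with no overlap and a difference of −1.36 (SE 0.18, 2.57-fold lower, adjusted p 8.94e-06), and without untransfected with Wnt3a replicate 2 the difference was −1.53 (adjusted p 3.73e-06). The interaction of FZ8CRD and Wnt3a, which asks whether Wnt3a changed DKK1 differently in the presence of FZD8_CRD, was −0.82 (SE 0.25, adjusted p 0.166). Without FZ8CRD replicate 3 it was −1.09 (adjusted p 0.00145), so the call on DKK1 rests on whether that array is used.

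Control siRNA against untransfected cells gave no DKK1 call as designed. The difference was −0.26 without Wnt3a (adjusted p 0.331) and −0.53 with it (adjusted p 0.0654), the latter with −0.54, −0.15 and −0.90 on the slides and no overlap. With the slide as a block the DKK1 difference with Wnt3a was called (adjusted p 0.0290). Without untransfected with Wnt3a replicate 2, the DKK1 difference with Wnt3a was −0.70 (adjusted p 0.0119), and it was called with quantile normalization (adjusted p 0.0384) and the deposited value table (adjusted p 0.0419).

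**Figure D3:**
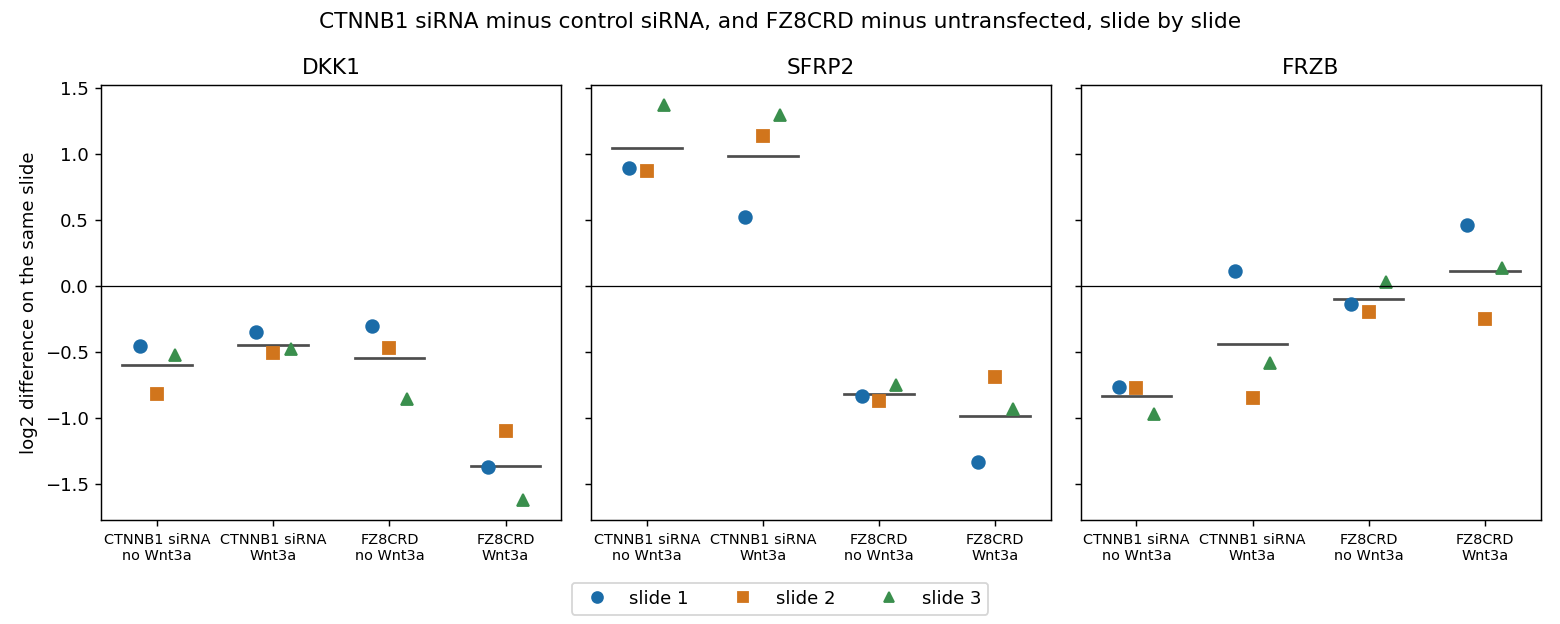
Within-slide log2 difference of DKK1, SFRP2 and FRZB, 1 point per slide, for CTNNB1 siRNA against control siRNA and for FZ8CRD against untransfected cells, without and with Wnt3a. DKK1 lies below 0 on every slide (−0.30 to −1.62), SFRP2 lies above 0 with CTNNB1 siRNA (0.52 to 1.37) and below 0 with FZ8CRD (−0.69 to −1.33), and FRZB is below 0 on each slide only for CTNNB1 siRNA without Wnt3a (−0.76 to −0.97).

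The promoters of DKK1, SFRP2 and FRZB, the 3 members called with CTNNB1 siRNA, are shown because that siRNA lowers the transcript of β-catenin, the partner of TCF/LEF factors. Sequences are from RefSeq, GRCh38.p14, as the 250 bases before the start of the gene on its own strand; 6 of the 10 members matched (DKK1, FRZB, SFRP2, SFRP4, SFRP5 and WIF1). The core word CTTTGWW of TCF/LEF factors, where W is A or T, was searched on both strands, and its matches are in capitals.
DKK1, chr10:52314031-52314280 (plus strand): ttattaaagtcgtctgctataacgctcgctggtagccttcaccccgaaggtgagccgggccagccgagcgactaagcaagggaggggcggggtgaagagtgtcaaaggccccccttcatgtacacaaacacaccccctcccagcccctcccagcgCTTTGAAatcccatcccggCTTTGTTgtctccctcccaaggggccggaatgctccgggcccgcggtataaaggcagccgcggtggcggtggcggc
SFRP2, chr4:153789084-153789333 (minus strand): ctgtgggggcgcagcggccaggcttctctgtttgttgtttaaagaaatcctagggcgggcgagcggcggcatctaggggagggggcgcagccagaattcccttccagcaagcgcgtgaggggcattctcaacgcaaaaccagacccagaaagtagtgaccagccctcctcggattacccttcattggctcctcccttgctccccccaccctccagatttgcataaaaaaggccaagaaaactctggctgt
FRZB, chr2:182866638-182866887 (minus strand): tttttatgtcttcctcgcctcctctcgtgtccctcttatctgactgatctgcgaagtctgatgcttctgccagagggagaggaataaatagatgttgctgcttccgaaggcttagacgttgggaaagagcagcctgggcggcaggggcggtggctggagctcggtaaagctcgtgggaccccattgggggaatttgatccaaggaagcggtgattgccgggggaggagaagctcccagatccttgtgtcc
DKK1 holds 2 matches, at 95 to 89 and at 76 to 70 bases before the start, and the other 5 promoters hold none. Of 35116 promoters of this length, 4199 (11.96%) hold at least 1 match. Binding at these matches was not tested.

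DKK2 and DKK3 were near the limit of detection. DKK2 was −5.18, −4.88 and −5.37 on the FZ8CRD arrays, the only condition in which it was well above background throughout, and its highest signal was −3.23 on a single untransfected array, where the other 2 arrays were at the floor. No DKK2 difference was called, and its standard error of 0.53 was the largest among the members. DKK3 was −6.13, −6.06 and −6.08 on the FZ8CRD arrays and −5.71, −5.45 and −5.35 with Wnt3a. The 2 groups of DKK3 values did not overlap, and the slides gave 0.42, 0.61 and 0.73. DKK3 was at least 1.498-fold higher in the means, but it was tested only because it was well above background in the higher group, so its adjusted p of 0.0452 is not read as a finding; it was 0.0440 without FZ8CRD replicate 3 and 0.0571 to 0.193 without any other array of the comparison. DKK3 was at the floor on all arrays of untransfected cells and of CTNNB1 siRNA without Wnt3a. A second DKK3 probe, A_33_P3261293, was well above background on 9 arrays and was not kept. For Wnt3a among FZ8CRD arrays its means went the other way (−5.69 with Wnt3a and −5.31 without it). That direction rests on FZ8CRD replicate 1 (−3.99), as replicates 2 and 3 were −6.10 and −5.85. DKK4 reached −4.45 on control siRNA with Wnt3a replicate 1 and was not well above background on another array.

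SFRP2, whose product carries the Frizzled-like domain, was read by probe A_23_P81103. On slides 1, 2 and 3 its signal was −3.48, −3.35 and −3.31 in untransfected cells and −3.35, −3.83 and −3.13 with Wnt3a. With control siRNA SFRP2 was −3.94, −3.76 and −4.19, and −3.83, −4.07 and −3.99 with Wnt3a. Control siRNA arrays were thus below untransfected arrays without Wnt3a, while with Wnt3a the groups overlapped through untransfected with Wnt3a replicate 2. With CTNNB1 siRNA SFRP2 was −3.06, −2.90 and −2.82, and −3.31, −2.93 and −2.69 with Wnt3a. On the FZ8CRD arrays it was −4.32, −4.22 and −4.07, and with Wnt3a −4.68, −4.52 and −4.07. The CTNNB1 siRNA arrays were above every control siRNA array for SFRP2, and the FZ8CRD arrays were below every untransfected array.

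The SFRP2 means ran from CTNNB1 siRNA (−2.93, SD 0.12) and CTNNB1 siRNA with Wnt3a (−2.98, SD 0.31) through untransfected (−3.38, SD 0.09), untransfected with Wnt3a (−3.44, SD 0.36), control siRNA with Wnt3a (−3.96, SD 0.12) and control siRNA (−3.97, SD 0.21) to FZ8CRD (−4.20, SD 0.13) and FZ8CRD with Wnt3a (−4.42, SD 0.32). Of the 7 neighbouring pairs 6 overlapped, and the pair that did not was CTNNB1 siRNA with Wnt3a and untransfected. The nearest arrays of that pair were almost equal (−3.310 and −3.313).

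CTNNB1 siRNA raised SFRP2 against control siRNA. Without Wnt3a the slides gave 0.89, 0.87 and 1.37, and the difference was 1.04 (SE 0.19, 2.06-fold higher, adjusted p 0.00133). With Wnt3a they gave 0.52, 1.14 and 1.29, with a difference of 0.98 (SE 0.19, 1.98-fold higher, adjusted p 0.00177). Both SFRP2 calls were lost with the spike-in probes (1.13, adjusted p 0.0531, without Wnt3a and 0.77, adjusted p 0.196, with it), and the call with Wnt3a was also lost without slide 2 (0.91, adjusted p 0.102). Neither pair of groups overlapped, and the interaction for SFRP2 was −0.06 (adjusted p 1). Control siRNA moved SFRP2 the other way: against untransfected cells it was lower by −0.46, −0.42 and −0.88 on the slides, a difference of −0.59 (SE 0.19, adjusted p 0.0330), and with Wnt3a by −0.53 (adjusted p 0.0943, and 0.0487 with the slide as a block, where it is called). The call without Wnt3a was lost without untransfected replicate 1 (−0.64, adjusted p 0.0599), replicate 2 (−0.57, 0.0815) or replicate 3 (−0.55, 0.0771), and without control siRNA replicate 1 (−0.60, 0.0729) or replicate 3 (−0.47, 0.143). It was also lost without any 1 slide (adjusted p 0.129 to 0.177), with quantile normalization (−0.47, 0.126), the spike-in probes (−0.87, 0.0630), the deposited value table (−0.47, 0.106), normexp background correction (−0.30, 0.0811), no filter (0.0531) and only the arrays compared (0.0528). With Wnt3a the difference was −0.72 (adjusted p 0.0145) without untransfected with Wnt3a replicate 2. All 6 CTNNB1 siRNA arrays also had SFRP2 above the untransfected arrays without Wnt3a, a comparison that was not tested. The margin was very small: −3.310 on CTNNB1 siRNA with Wnt3a replicate 1 and −3.313 on untransfected replicate 3.

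FZ8CRD lowered SFRP2 with and without Wnt3a. The slides gave −0.84, −0.87 and −0.75 without Wnt3a, with a difference of −0.82 (SE 0.19, 1.76-fold lower, adjusted p 0.00186), and −1.33, −0.69 and −0.93 with it, with a difference of −0.98 (SE 0.19, 1.98-fold lower, adjusted p 0.00048). Neither pair of groups overlapped. Without FZ8CRD replicate 3 the first SFRP2 difference was −0.89 (adjusted p 0.00287), and without untransfected with Wnt3a replicate 2 the second was −1.18 (adjusted p 0.0001). The interaction was −0.16 (adjusted p 0.923). Wnt3a itself changed SFRP2 by −0.06, 0.01, −0.05 and −0.22 in untransfected, control siRNA, CTNNB1 siRNA and FZ8CRD cells, none called. In untransfected cells the slides gave 0.14, −0.48 and 0.18, and the sign of that difference rests on untransfected with Wnt3a replicate 2. CTNNB1 siRNA and FZD8_CRD moved SFRP2 in opposite directions, against different controls, and the difference between the treatments was not tested.

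FRZB, the relative of the SFRP genes also known as SFRP3, was read by probe A_23_P363778, close to the floor. On slides 1, 2 and 3 it was −5.24, −5.17 and −5.23 in untransfected cells and −4.73, −4.66 and −4.68 with control siRNA. With CTNNB1 siRNA FRZB was −5.49, −5.43 and −5.65. Control siRNA thus had the highest FRZB values without overlap with either condition. With Wnt3a it was −5.68, −5.14 and −5.62 in untransfected cells, −5.78, −4.95 and −5.09 with control siRNA and −5.67, −5.80 and −5.67 with CTNNB1 siRNA. FRZB was −5.37, −5.37 and −5.20 on the FZ8CRD arrays and −5.22, −5.39 and −5.48 with Wnt3a. The 3 arrays on which FRZB was not well above background were untransfected with Wnt3a replicate 3 and CTNNB1 siRNA with Wnt3a replicates 2 and 3.

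In order, the FRZB means were control siRNA (−4.69, SD 0.03), untransfected (−5.21, SD 0.04), control siRNA with Wnt3a (−5.27, SD 0.44), FZ8CRD (−5.31, SD 0.10), FZ8CRD with Wnt3a (−5.37, SD 0.14), untransfected with Wnt3a (−5.48, SD 0.29), CTNNB1 siRNA (−5.52, SD 0.11) and CTNNB1 siRNA with Wnt3a (−5.71, SD 0.08). The first and the last of the 7 neighbouring pairs did not overlap and the other 5 did. The nearest arrays of the last pair were almost equal (−5.649 and −5.669). Only 1 of the 3 arrays of CTNNB1 siRNA with Wnt3a was well above background, so that separation is not resolved.

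CTNNB1 siRNA lowered FRZB against control siRNA by −0.76, −0.77 and −0.97 on the slides, a difference of −0.83 (SE 0.19, 1.78-fold lower, adjusted p 0.00749). The FRZB call held when any 1 array was left out but was lost without slide 1, 2 or 3 (adjusted p 0.0520, 0.107 and 0.120), with quantile normalization (−0.75, adjusted p 0.0596) and with the spike-in probes (−0.75, adjusted p 0.563). Control siRNA raised FRZB against untransfected cells by 0.51, 0.51 and 0.55, a difference of 0.52 that was not called as designed (adjusted p 0.0577) and was called with the slide as a block (adjusted p 0.0349). Wnt3a lowered FRZB in control siRNA cells by −1.05, −0.29 and −0.41 with no overlap, a difference of −0.58 that was not called either (adjusted p 0.127). With Wnt3a, CTNNB1 siRNA arrays had FRZB at least 1.34-fold lower than control siRNA arrays in the means, with 0.11, −0.85 and −0.58 on the slides and an adjusted p of 0.174. The interaction for FRZB was 0.39 (SE 0.27, adjusted p 1). FRZB was well above background on only 1 of the 3 arrays of CTNNB1 siRNA with Wnt3a. That value is therefore inexact, and no conclusion is drawn from it.

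SFRP1 was read by probe A_23_P10121, which the array carries 10 times. Over the 24 arrays 240 spots were read, 8 were left out because the scanner marked them as outliers, and the SD between the spots of an array was 0.10 to 0.43 with a median of 0.24. On slides 1, 2 and 3 SFRP1 was −5.08, −5.41 and −5.19 in untransfected cells and −4.53, −4.56 and −4.90 with Wnt3a. Each Wnt3a array was above each untransfected array. With control siRNA SFRP1 was −4.66, −4.98 and −5.48 and, with Wnt3a, −4.10, −4.44 and −5.05. With CTNNB1 siRNA it was −4.93, −5.21 and −5.30 and, with Wnt3a, −4.34, −4.82 and −5.10. In these groups, which overlapped, slide 1 was highest and slide 3 lowest in SFRP1, while on each slide the Wnt3a array was the higher of its pair.

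**Figure D4:**
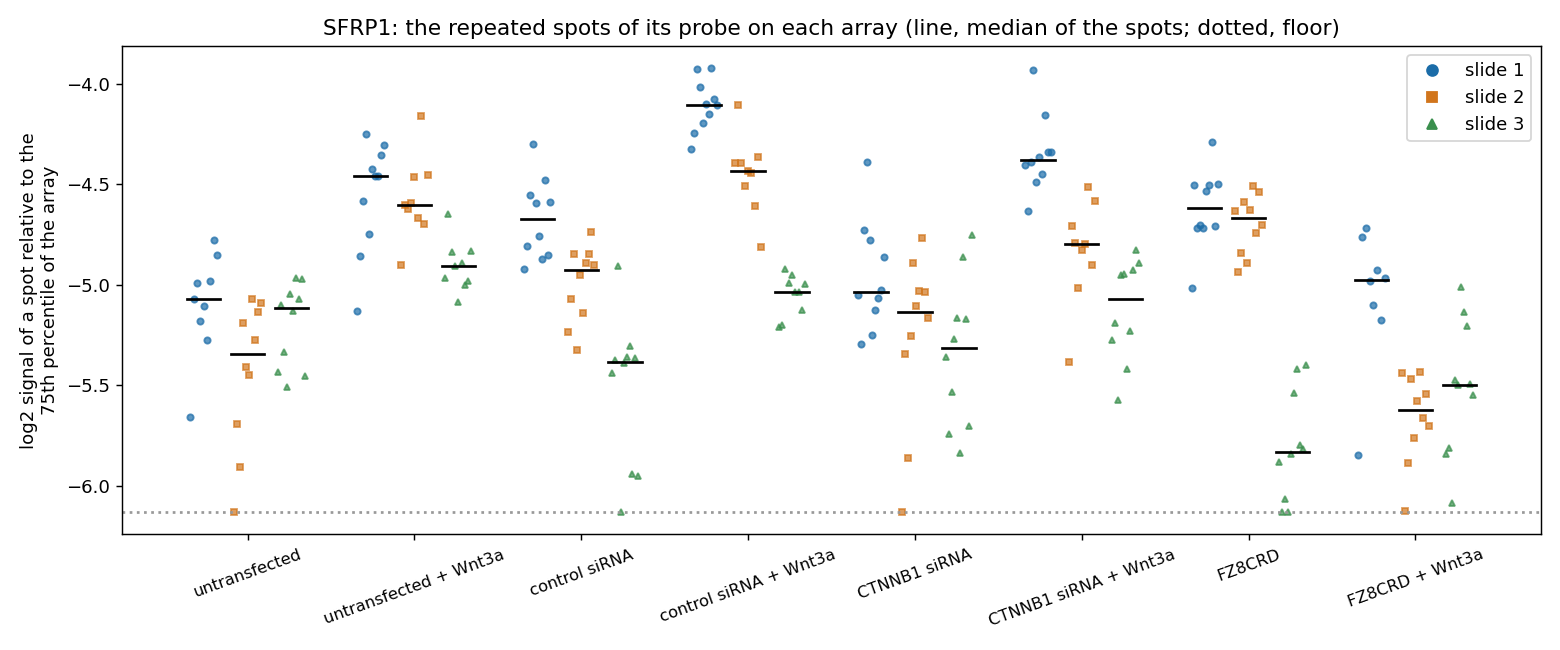
Scaled log2 signal of each repeated SFRP1 spot, by array and condition, with a line at the median of the spots. The SD between spots of 1 array is 0.10 to 0.43, and the fewest spots well above background on an array is 6, on FZ8CRD replicate 3.

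Wnt3a raised SFRP1 on 9 of 9 slide pairs without FZD8_CRD: by 0.55, 0.85 and 0.29 in untransfected cells, 0.56, 0.54 and 0.43 with control siRNA, and 0.60, 0.40 and 0.19 with CTNNB1 siRNA. The fit gave differences of 0.56 (SE 0.31, adjusted p 0.316), 0.51 (adjusted p 0.534) and 0.40 (adjusted p 0.758), none called. With the slide as a block the SE fell to 0.20 and the adjusted p values were 0.0785, 0.165 and 0.361, again not called. SFRP1 was −4.61, −4.69 and −5.80 on the FZ8CRD arrays and −5.03, −5.65 and −5.48 with Wnt3a, a difference of −0.35 (adjusted p 0.630) with slides that disagreed (−0.42, −0.95 and 0.32). Without FZ8CRD replicate 3 it was −0.73 (adjusted p 0.0873).

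With Wnt3a, SFRP1 was lower on each FZ8CRD array than on any untransfected array, by −0.49, −1.09 and −0.58 on the slides. The difference of −0.72 was not called as designed (adjusted p 0.0736) and was called with the slide as a block (adjusted p 0.00716); without untransfected with Wnt3a replicate 2 it was −0.67 (adjusted p 0.150). The interaction of FZ8CRD and Wnt3a for SFRP1 was −0.91 (SE 0.43, adjusted p 0.390), and without FZ8CRD replicate 3 it was −1.29 (adjusted p 0.0479). The SFRP1 means ran from −4.53 in control siRNA with Wnt3a to −5.38 in FZ8CRD with Wnt3a, and all 7 neighbouring pairs overlapped.

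SFRP4 had 2 kept probes, and the difference between the probes was not tested. The probe that stands for the gene, A_21_P0011967, ran from −5.03 to −2.95, with means from −3.55 in untransfected cells with Wnt3a to −4.49 with control siRNA and overlap in all 7 neighbouring pairs. No SFRP4 difference was called with it, and without untransfected with Wnt3a replicate 2 the difference for control siRNA with Wnt3a was −0.87 (adjusted p 0.0475, against −0.59 and 0.223 with all arrays). The second SFRP4 probe, A_33_P3335177, was −4.31, −4.54 and −4.70 in untransfected cells, −5.47, −5.37 and −5.31 with control siRNA and −4.84, −4.70 and −4.47 with CTNNB1 siRNA. On that probe, without Wnt3a, the control siRNA arrays were below both other groups without overlap. In a fit over all kept probes, chosen after the data were seen, control siRNA against untransfected cells without Wnt3a gave −0.87 on the second probe (adjusted p 0.0123) and −0.50 on the first (adjusted p 0.234). CTNNB1 siRNA against control siRNA without Wnt3a gave 0.72 on the second (adjusted p 0.0623) and 0.19 on the first (adjusted p 0.812), and with Wnt3a it gave −0.03 (adjusted p 0.980) and −0.02 (adjusted p 0.990). Wnt3a with CTNNB1 siRNA gave −0.56 on the second probe (adjusted p 0.427), lower on each slide without overlap, and 0.14 on the first (adjusted p 0.971).

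SFRP5 and WIF1 complete the family. SFRP5 was well above background only on control siRNA with Wnt3a replicate 3, at −3.78. WIF1 was at the floor on all 24 arrays.

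Other genes that act outside the cell or at the membrane on the same step were taken from lists. Their counts are read beside the shares of all genes called in the same comparisons, 10.6% for CTNNB1 siRNA, 22.3% and 9.03% for control siRNA without and with Wnt3a, 41.9% and 37.2% for FZ8CRD, and 5.6%, 2.11%, 0.0406% and 8.29% for Wnt3a in untransfected, control siRNA, CTNNB1 siRNA and FZ8CRD cells. Of 10 further extracellular antagonists, 7 were tested, and NOTUM, SOSTDC1 and CER1 were well above background on no array. CTNNB1 siRNA lowered 1 of the 7 without Wnt3a, TRABD2A (−1.20), and 4 with Wnt3a: TRABD2A (−0.80), IGFBP4 (−0.62), TRABD2B (−0.61) and SOST, at least 1.96-fold. FZ8CRD lowered 3 without Wnt3a (2 without FZ8CRD replicate 3) and raised 3, of which TRABD2A changed direction under the spike-in probes (0.35 against −0.03). With Wnt3a it lowered 2, SOST by at least 3.73-fold and APCDD1 by at least 5.65-fold, and 3 without untransfected with Wnt3a replicate 2. Wnt3a raised 1 in untransfected cells (IGFBP4, 0.64, and 0.43 with an adjusted p of 0.223 without replicate 2), 2 with control siRNA (SOST and TRABD2B, 0.71) and 0 with CTNNB1 siRNA. Among FZ8CRD arrays it raised 1 and lowered 2, and without FZ8CRD replicate 3 it raised 1 and lowered 4. Control siRNA raised 2 and lowered 2 without Wnt3a and moved 0 with it, or raised 1 without untransfected with Wnt3a replicate 2.

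Co-receptors that DKK proteins bind were all tested. KREMEN2, which binds DKK1, was lower with CTNNB1 siRNA (−1.21), higher with control siRNA (1.29, and 0.72 with Wnt3a) and higher with FZ8CRD (1.31, and 0.81 with Wnt3a). LRP5 was lower with FZ8CRD (−0.37, and −0.82 with Wnt3a) and with control siRNA plus Wnt3a (−0.54). LRP6 was lower with FZ8CRD (−0.49, and −0.37 with Wnt3a) and with control siRNA (−0.37, and −0.40 with Wnt3a). KREMEN1 was not called. Wnt3a called none of the 4, except that without FZ8CRD replicate 3 LRP5 was lower among FZ8CRD arrays (−0.36, adjusted p 0.0244). Without that array the interaction of FZ8CRD and Wnt3a was called lower for LRP5 (−0.54), 4 antagonists, 2 ligands (WNT5A and WNT6), 1 Frizzled gene (FZD7) and 2 feedback targets (NKD2 and LEF1), none of them called with all arrays; 7.75% of all genes were called in that fit, against 0.073% with all arrays.

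For the 8 feedback targets, CTNNB1 siRNA lowered 4 without Wnt3a and 7 with it, and raised 0; NKD1, 1 of the 7, had passed the filter only through control siRNA with Wnt3a. Wnt3a raised 0 of the 8 with CTNNB1 siRNA, and 2 among FZ8CRD arrays, TCF7 (1.64) and RNF43 (0.81), also without FZ8CRD replicate 3 (2.09 and 0.86). Control siRNA raised 1 and lowered 1 without Wnt3a and raised 1 with it, or 3, with NKD1 among them, without untransfected with Wnt3a replicate 2. FZ8CRD lowered 2 without Wnt3a, AXIN2 (−0.60) and RNF43 (−1.30), and raised 2, LEF1 (1.00) and SP5 (0.19), the last changing direction under the spike-in probes (−0.20). With Wnt3a it lowered 3: AXIN2 (−0.84), NKD2 (−0.98) and RNF43 (−1.23). Wnt3a, which raised RNF43 and TCF7 in untransfected cells (0.73 and 1.68), left DKK1 uncalled there (−0.06, a sign that rests on replicate 2).

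Of the 19 Wnt ligand genes 9 were tested and 6 were well above background on no array. CTNNB1 siRNA lowered 1 without Wnt3a (WNT3, −0.76) and 4 with it, and control siRNA raised 1 without and 1 with Wnt3a, the latter 3 raised and 1 lowered without untransfected with Wnt3a replicate 2. FZ8CRD raised 3 and lowered 2 without Wnt3a (lowered 1 without FZ8CRD replicate 3) and raised 2 and lowered 2 with it, beside 41.9% and 37.2% of all genes called. Wnt3a raised 1 in untransfected cells and 0 without replicate 2, raised 1 and lowered 1 with control siRNA, raised 1 and lowered 1 among FZ8CRD arrays (lowered 2 without FZ8CRD replicate 3), and moved 0 with CTNNB1 siRNA. WNT5B, called for Wnt3a with control siRNA and for control siRNA and CTNNB1 siRNA with Wnt3a, had passed the filter only through control siRNA with Wnt3a.

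Of 10 Frizzled genes 9 were tested. FZD8, the gene whose mouse counterpart the soluble domain comes from, was lower with FZ8CRD (−1.53, and −1.30 with Wnt3a), with control siRNA (−1.42, and −1.20 with Wnt3a) and with Wnt3a in untransfected cells (−1.16, and −0.73 with an adjusted p of 0.163 without replicate 2). CTNNB1 siRNA raised 2 Frizzled genes without Wnt3a, and raised 3 and lowered 1 with it. Control siRNA lowered 4 and raised 1 without Wnt3a, FZD6, which changed direction under the spike-in probes (0.25 against −0.03), and lowered 2 with Wnt3a. FZ8CRD raised 3 and lowered 3 without Wnt3a and lowered 3 with it. Wnt3a raised 1 and lowered 2 in untransfected cells (lowered 0 without replicate 2), raised 1 with control siRNA, moved 0 with CTNNB1 siRNA and lowered 1 among FZ8CRD arrays, or 3 without FZ8CRD replicate 3. Of 7 R-spondin and LGR genes 5 were tested, and LGR5 was well above background on no array. Of these 5, FZ8CRD lowered 2 without Wnt3a and 1 with it, control siRNA lowered 2 without Wnt3a and 1 with it (both counts with Wnt3a were 2 without untransfected with Wnt3a replicate 2), and CTNNB1 siRNA moved 0 without Wnt3a and raised 1 and lowered 1 with it. Wnt3a raised 1 in untransfected cells (0 without replicate 2), lowered 1 with control siRNA and 1 among FZ8CRD arrays, and moved 0 with CTNNB1 siRNA.

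Cell markers moved in the same comparisons as the inhibitors, and their part in the results was not tested. The same shares of all genes apply, 22.3% for control siRNA and 41.9% for FZ8CRD without Wnt3a. All 6 hepatocyte markers were lower with control siRNA than in untransfected cells without Wnt3a, and all 6 were lower with FZ8CRD; with Wnt3a the counts were 3 and 4. CTNNB1 siRNA raised 1 with Wnt3a and moved 0 without it, and Wnt3a raised 2 and lowered 1 among FZ8CRD arrays and moved 0 in the other states. Their summed log2 level was 9.58 to 10.45 on untransfected arrays, 8.54 to 8.66 with control siRNA, 8.87 to 9.26 with CTNNB1 siRNA and 7.95 to 8.51 on FZ8CRD arrays. With Wnt3a it was 8.61 to 9.80 in untransfected cells, 7.59 to 8.06 with control siRNA, 8.14 to 8.93 with CTNNB1 siRNA and 8.55 to 8.61 on FZ8CRD arrays. The ALB probe gave the strongest signal, 60.3% of the sum; such sums and shares add signals of different probes and describe signal, not transcripts. SFRP2 and this sum were both lower with control siRNA and with FZ8CRD than in untransfected cells, and against control siRNA both were higher with CTNNB1 siRNA, the sum without overlap with or without Wnt3a. In some other pairs, not all of them among the comparisons fitted, they did not go together. CTNNB1 siRNA had a lower mean sum than untransfected cells (9.11 against 10.03) and higher SFRP2 (−2.93 against −3.38). With control siRNA, Wnt3a came with a lower sum (7.89 against 8.60, without overlap) while SFRP2 was −3.96 against −3.97. With Wnt3a, FZ8CRD arrays had a higher sum than control siRNA arrays (8.58 against 7.89) and lower SFRP2 (−4.42 against −3.96). In a culture measured in bulk, fewer cells of a type and less RNA per cell cannot be told apart.

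Mesenchymal markers (7 of 8 tested, THY1 well above background on no array) summed to 3.36 to 4.88 over the 24 arrays, with ACTA2 as 68.8% of the summed signal. Wnt3a raised 4 of the 7 in untransfected cells, of which ACTA2 changed direction under the spike-in probes (0.31 against −0.08), and 2 without untransfected with Wnt3a replicate 2. It raised 3 with control siRNA, 0 with CTNNB1 siRNA and 5 among FZ8CRD arrays. CTNNB1 siRNA lowered 3 without Wnt3a and 5 with it. Control siRNA raised 1 and lowered 2 without Wnt3a and lowered 1 with it, and FZ8CRD lowered 2 without Wnt3a and raised 2, of which ACTA2 changed direction under the spike-in probes (0.30 against −0.09), and raised 3 and lowered 1 with Wnt3a (raised 4 without untransfected with Wnt3a replicate 2). Epithelial and biliary markers (5 of 6 tested, KRT19 as 62.0% of the summed signal, EPCAM well above background on 1 array) summed to 8.50 to 9.22. CDH1 was lower with FZ8CRD (−1.08, and −1.96 with Wnt3a), the former −0.58 with an adjusted p of 0.198 without FZ8CRD replicate 3, and lower with Wnt3a among FZ8CRD arrays (−1.60, and −2.10 without that array). KRT19 was higher with FZ8CRD and Wnt3a (0.59) and with FZ8CRD alone (0.36), the latter changing direction under the spike-in probes (−0.03) and being 0.23 with an adjusted p of 0.0675 without FZ8CRD replicate 3. Without that array KRT19 was also higher with Wnt3a among FZ8CRD arrays (0.34, adjusted p 0.0206). Endothelial markers (3 of 3 tested, CDH5 as 57.4% of the summed signal) summed to −2.64 to −1.86, and leukocyte markers (3 of 3 tested, CD68 as 95.9% of the summed signal) to −0.05 to 2.00. CD68 was lower with FZ8CRD (−1.27) on replicates 1 and 2 but not on replicate 3, where its slide difference was 0.02, and was −1.71 without that array; Wnt3a raised it among FZ8CRD arrays (0.90, and 1.34 without that array), and without untransfected with Wnt3a replicate 2 it was lower with FZ8CRD and Wnt3a (−0.72, adjusted p 0.0400, against −0.60 and 0.0518). PECAM1 was lower with CTNNB1 siRNA without Wnt3a (−0.94), and no other endothelial or leukocyte marker was called. For the interaction of FZ8CRD and Wnt3a no marker list had a call with all arrays (limma), and without FZ8CRD replicate 3, where 7.75% of all genes were called, the hepatocyte list had 2 higher and 1 lower, the mesenchymal list 3 higher and the leukocyte list 1 higher.

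The genes whose signals followed each member most closely over the 24 arrays were searched among 15970 genes with a symbol, and Pearson's r is given as a description. The nearest to DKK1 were DHCR7 (0.949), FMOD (0.944) and FDPS (0.939). FYCO1 (0.925), ALOX12-AS1 (0.920) and IPPK (0.910) were nearest to SFRP2. For FRZB the highest were SPACA9 (0.796), GMFG (0.783) and PSME2 (0.755). SFRP1 was followed by CSNK1E (0.817), PRR4 (0.782) and ELK1 (0.775), and SFRP4 by AVP (0.830), ZNF160 (0.785) and SLC22A23 (0.759). DKK3 was followed by SORCS3 (0.840), PCOLCE2 (0.835) and BCL11B (0.790), and DKK2 by MYO7B (0.720), GRAMD1C (0.706) and KL (0.688), these last with members near the floor.

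When arrays were scaled to the 7 spike-in probes in place of the 75th percentile, the median log2 difference of all genes moved by −0.39 to 0.30 depending on the comparison, and the differences above are relative to the 75th percentile. Spike-in scaling moves nearly all genes of a comparison by about the same amount, so a difference changes direction where it is smaller than the shift and of the other sign. AXIN2 and ACTA2 for Wnt3a in untransfected cells, FZD6 for control siRNA, and TRABD2A, SP5, KRT19 and ACTA2 for FZ8CRD without Wnt3a did so. Of the 11 calls of members, 7 were lost with the spike-in probes, all 4 for CTNNB1 siRNA among them. With quantile normalization the 11 differences kept their direction and 3 lost the call: DKK3 for Wnt3a among FZ8CRD arrays, SFRP2 for control siRNA and FRZB for CTNNB1 siRNA. The deposited value table was used for DKK1, SFRP2 and SFRP4 only, and SFRP2 for control siRNA lost its call there. The shares of all genes called under these scalings are not given, so a loss among members is not set apart from a general loss of calls.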

How the data were processed

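The 24 scanner files were used. Per the file headers they hold spot intensity from Agilent Feature Extraction 10.7.1.1 (10.7.3.1 in the labels), with background correction by the authors' scanner software. The deposited value table holds log2 values of 25443 probes, scaled by the authors and centred on each probe's median; it served only as an alternative. The processed signal was divided by the 75th percentile of the array and logged, with a floor of −6.13, the median over arrays of the lowest signal well above background. Control spots and spots marked as outliers were left out, and repeated spots were averaged. Of 50683 probes, 31061 were kept, each well above background throughout 1 condition or more; 28174 probes matched a RefSeq symbol. The kept probe with the highest mean stood for its gene.

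One mean per condition was fitted over 24 arrays with limma 3.58.1 in R 4.3.3 (eBayes with trend), two-sided, with Benjamini-Hochberg adjustment over 24643 genes. Tables and plots used Python 3.11.15. The genes named are all members, CTNNB1, called genes of the pathway lists and the 3 nearest genes of each tested member. The members and lists were chosen with earlier results of these data known. The number of arrays limits the precision. Alternatives tried were other scalings, background correction, filters, floors, probes, a slide block, fewer arrays and another threshold.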

Additional observations from a re-analysis of the deposited data

Results flagged for a closer look

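RNF43, a membrane ubiquitin ligase gene in the list of feedback targets, responded to Wnt3a differently with the 2 siRNAs. Its log2 signal was 1.00, 1.08 and 0.80 with control siRNA and 1.92, 1.92 and 2.12 with Wnt3a, and with CTNNB1 siRNA it was 0.33, 0.24 and 0.32 without Wnt3a and −0.15, 0.12 and 0.30 with it. The interaction of CTNNB1 siRNA and Wnt3a in the limma fit was −1.23 (SE 0.14, adjusted p 0.00129). RNF43 was 1 of the 4 genes called in that interaction among all 24643, and no secreted inhibitor was.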

How the results depend on the processing

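Each result was recomputed under alternatives, most of which change 1 choice. The deposited table differs in scaling, centring and probes together and holds 3 of the 7 tested members (DKK1, SFRP2 and SFRP4), so its counts are out of 3, and the other threshold changes both the p and the fold asked for. The number of called members changed by more than 1.5 times as follows. For Wnt3a among FZ8CRD arrays it was 2 and became 1 with quantile normalization, the deposited table, normexp background correction, no filter, only probes well above background on all 24 arrays, or a floor of 1 intensity unit, and 0 with the spike-in probes or only the arrays compared. For control siRNA without Wnt3a it was 1 and became 0 with quantile normalization, the spike-in probes, the deposited table or normexp. It became 2 with the mean of the kept probes and 2 with the replicate block. SFRP2, the member called there as designed, also lost its call with no filter and with only the arrays compared. For control siRNA with Wnt3a the count was 0. It became 1 with quantile normalization, the deposited table or the other threshold (unadjusted p below 0.01, fold beyond 1.5 up or 0.7 down), and 2 with the replicate block. For CTNNB1 siRNA it was 3 without Wnt3a and became 0 with the spike-in probes, and it was 1 with Wnt3a and became 0 with the spike-in probes and 2 with only the arrays compared. For FZ8CRD without Wnt3a it was 2 and became 1 with only the arrays compared. With that threshold it was 1 in place of 0 for Wnt3a with control siRNA and for the interaction of FZ8CRD and Wnt3a. The cause of these changes was not tested, apart from the fits with fewer genes or arrays. Except for the filter on all 24 arrays and the replicate block, the shares of all genes called under these alternatives are not given. A loss among members is therefore not set apart from a general loss of calls.

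Leaving out 1 array, or 1 replicate number from every condition, gave 0 to 1 for Wnt3a among FZ8CRD arrays where the count changed, 0 for control siRNA without Wnt3a and 3 with it, 1 to 2 for CTNNB1 siRNA without Wnt3a, 0 or 2 with it, 1 for FZ8CRD without Wnt3a, 3 with it and 2 for its interaction with Wnt3a. Shares of all genes called are given only for the fits without either array that stood apart. In the other fits a change among members is not set apart from a general change in calls. Without slide 1, 2 or 3 the FRZB difference for CTNNB1 siRNA was −0.87, −0.87 or −0.77 (adjusted p 0.0520, 0.107 and 0.120), and the SFRP2 difference for CTNNB1 siRNA with Wnt3a was 0.91 (adjusted p 0.102) without slide 2.

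One difference reversed: DKK3 for Wnt3a among FZ8CRD arrays was −0.38 with no filter. There the other DKK3 probe, which had failed the filter, stands for the gene. That reversal rests on FZ8CRD replicate 1 (−3.99, against −6.10 and −5.85 on replicates 2 and 3). Of the 14 member differences followed, 11 were called as designed. Of these, 7 lost their call with the spike-in probes, 4 with only the arrays compared, 3 with quantile normalization and 2 with normexp. With no filter 2 lost it (DKK1 for CTNNB1 siRNA and SFRP2 for control siRNA, both without Wnt3a), besides DKK3, which reversed. The deposited table lost 1 call and a floor of 1 lost 1. These losses are not set beside shares of all genes called either. DKK1 and SFRP2 for FZ8CRD with Wnt3a, and SFRP2 for FZ8CRD without Wnt3a, kept direction and call in all alternatives. The median of repeated spots, chosen after seeing the data, left all 14 on the same side.

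After the condition means were removed, same-numbered arrays had a median r of 0.39 (lowest −0.06, 82 of 84 pairs over 0.1) and other pairs a median of −0.19, and for 24 of 24 arrays the nearest array of another condition had the same number. The shared number is the slide, and how closely it pairs the arrays was measured from the data. The fits as designed do not use the slide. With the replicate block, DKK1 and SFRP2 for control siRNA with Wnt3a had adjusted p values of 0.0290 and 0.0487, and FRZB for control siRNA without Wnt3a 0.0349. DKK2, DKK3 and FRZB are limited by signal over background.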
